A study of Homo sapiens with 20 samples.

Results

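GTSF1, MAGEC2, TUBA3E, TBATA and CRISP2 are genes best known from the germline or the testis, and all were seen to differ between groups of SKBr3 cells. SKBr3 is a human breast cancer line with amplified ERBB2. The members were selected on the measured differences between groups that are given here, so their values are a description and carry no test. The platform holds 6 probes of these 5 genes (2 for MAGEC2), out of 47323 probes, and all 6 were detected on both arrays of at least 1 group. GTSF1 and TBATA were detected in all 10 groups, the brighter MAGEC2 probe in 7, the dimmer MAGEC2 probe and TUBA3E in 2 and CRISP2 in 1, so that the last 3 passed only through the groups in which they were high.

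Cancer-testis genes are active in germ cells and are kept silent in most other tissues, in large part by methylation of their promoters. Many of them lie on the X chromosome, and tumours often express some of them. GTSF1 (gametocyte-specific factor 1) is a zinc finger protein that in mice and flies works with PIWI proteins, which silence transposons through small RNAs called piRNAs. MAGEC2 belongs to the MAGE family of tumour antigens and binds TRIM28, a corepressor. TUBA3E is an alpha-tubulin, TBATA is named for thymus, brain and testes, and CRISP2 is a secreted cysteine-rich protein of the sperm acrosome and tail and a member of the CAP superfamily.

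Total RNA was hybridized to 20 Illumina HumanHT-12 v4 arrays, 2 for each of 10 groups. Lapatinib-resistant SKBr3 cells (LRSKBr3), derived under gradually rising doses of this EGFR and ERBB2 kinase inhibitor and kept in it (1 µM in the sample labels, 2 µM in the growth protocol), were set against parental SKBr3 cells in DMSO. SKBr3 cells deprived of serum (24 h in one protocol, 48 h in another) and then given EGF, the ligand of EGFR, or Heregulin (HRG), a ligand of ERBB3 and ERBB4, both at 100 µM as the labels have it, for 24 h by the labels and 3 h by the study's methods, were set against starved cells given PBS. Each of these 5 settings was transfected for 60 h with siRNA against ERRα (siERRα), the nuclear receptor encoded by ESRRA, or with control siRNA (siC). Resistant cells without the drug and parental cells with it were not analysed here, so resistance and the presence of lapatinib cannot be told apart, and the labels do not say whether the resistant line is a clone. The starved and the parental cells were 2 experiments by the labels, so that serum, vehicle and experiment cannot be told apart between them. Nothing in the labels says that the 2 replicates of a group were separate cultures, and the spread between them may be technical.

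Levels are log2 intensities after background correction and quantile normalization. Detection was called where a probe's detection p-value, set against the array's own negative control beads, lay under 0.01. Detected probes numbered 12151 to 15177 per array, and no 2 arrays were identical. The first EGF siERRα array stood apart: over the 9592 genes measured, its levels correlated at 0.831 to 0.876 with those of the other arrays, which correlated at 0.933 to 0.990 among themselves. Group differences of the members that include it are given with and without it. It also enters the spread of the fit, and more genes were called without it in all 5 main comparisons. ESRRA was lower with siERRα on both arrays of each setting, with a mean difference over the 5 settings of -1.47 ± 0.14 on the log2 scale (SE, adjusted p = 5.3e-04 by limma). Over the other 19 arrays it was -1.38 ± 0.11. The depletion was unequal. In resistant cells ESRRA read 6.40 and 6.43 against 8.89 and 9.17, a difference of -2.61 ± 0.30 (adjusted p = 0.0079 by limma). It was -1.28 with EGF, -0.99 with HRG, -1.14 in starved and -1.33 in parental cells, none called by limma. Resistant over parental for ESRRA was -1.41 under siERRα and -0.13 under siC. Of 11 luminal and ERBB2 markers, 10 were detected in some group, and the exception was CDH1 (E-cadherin), which this line is known to lack. Germ cell markers on the platform numbered 11, of which LDHC alone passed. Of 9 Sertoli and Leydig cell markers INHA alone passed, of 7 leukocyte markers CD14, CD68 and LYZ, and of 9 fibroblast and endothelial markers VWF and CDH5. In bulk RNA of this kind, more expressing cells and more RNA per cell cannot be told apart.

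GTSF1 lies on chromosome 12 (54455957-54473602, GRCh38.p14) and showed the highest positive difference of all 9592 genes between resistant and parental cells. Its level was 9.91 and 10.52 in resistant siERRα cells and 10.47 and 10.30 in resistant siC cells, against 6.08 and 6.25 in parental siERRα cells and 6.67 and 6.49 in parental siC cells. Before normalization, its signal was 1189 to 1790 on the 4 resistant arrays and 182 to 228 on the 4 parental arrays. All 4 resistant arrays were thus far above all 4 parental arrays, and both pairs of replicates were close to each other beside this gap. The difference was 3.81 ± 0.22 on the log2 scale (SE, 14-fold) under siC and 4.05 ± 0.22 (16.6-fold) under siERRα.

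In the growth factor experiment GTSF1 stayed near the parental level. It was 6.45 and 6.33 in EGF siERRα cells and 6.84 and 7.12 in EGF siC cells, 6.35 and 6.21 in HRG siERRα cells and 6.99 and 7.15 in HRG siC cells, and 6.48 and 7.03 in starved siERRα cells and 6.65 and 6.85 in starved siC cells. Both siERRα arrays were below both siC arrays with EGF (-0.59 ± 0.22, and -0.65 without the array that stood apart), with HRG (-0.79 ± 0.22) and in parental cells (-0.41 ± 0.22), while the arrays overlapped in starved cells (0.01 ± 0.22) and in resistant cells (-0.17 ± 0.22). In order of level, the resistant groups came first at 10.39 ± 0.12 (siC, SD, n = 2) and 10.22 ± 0.43 (siERRα), and the other 8 followed between 7.07 ± 0.11 (HRG siC) and 6.17 ± 0.12 (parental siERRα). Among those 8, neighbours in the order overlapped, except that both parental siC arrays were above both EGF siERRα arrays.

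**Figure D1:**
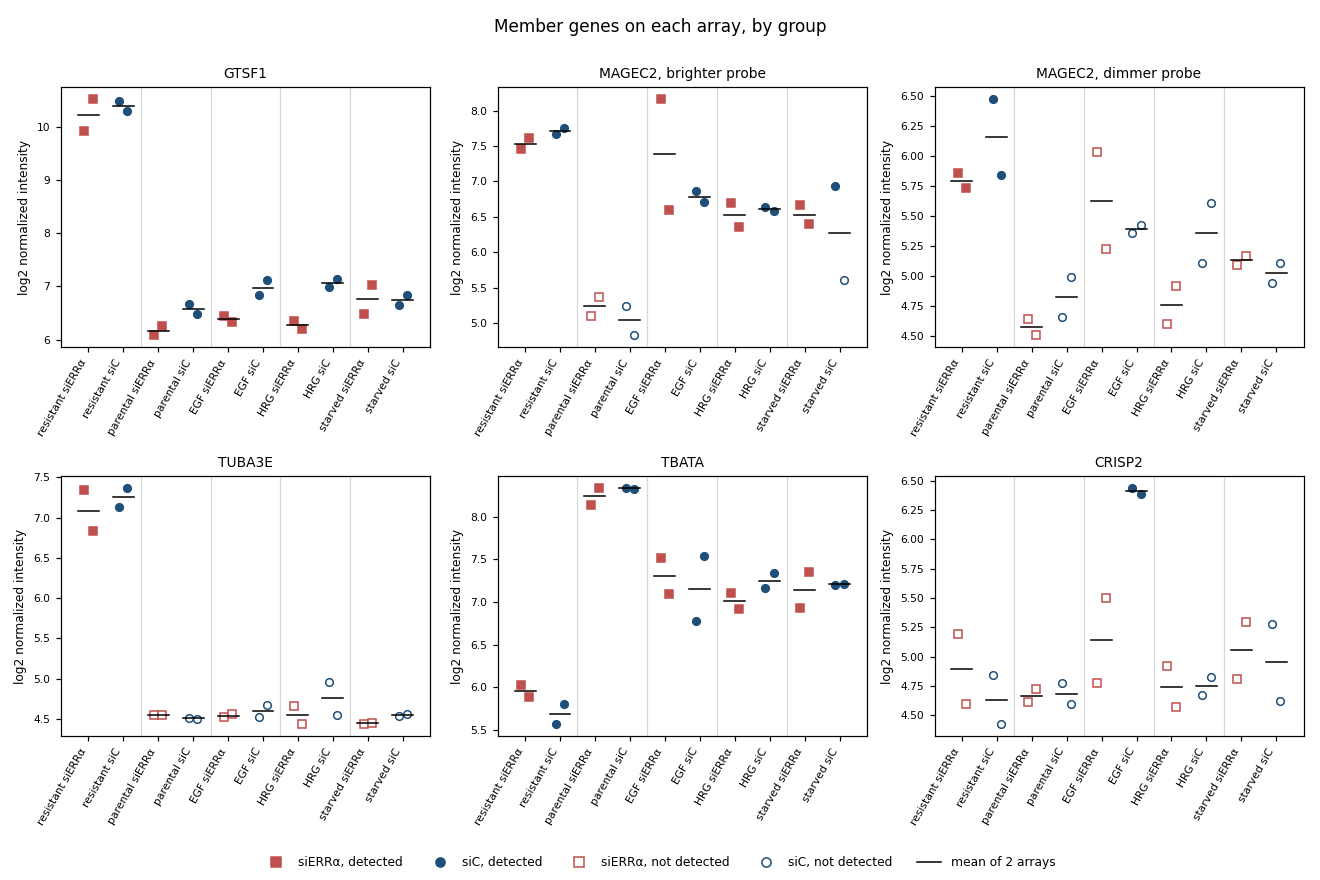
Log2 normalized intensity of the 6 member probes on each of the 20 arrays (vertical axes, each panel with its own range), by group (horizontal axis). Squares are siERRα and circles siC, open symbols were not detected, and lines are means of 2 arrays. GTSF1, MAGEC2 and TUBA3E are highest in the resistant groups (GTSF1 at 9.91 to 10.52), except for 1 EGF siERRα array of MAGEC2, TBATA is lowest there, and CRISP2 is detected with EGF under siC alone.

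MAGEC2 lies on the X chromosome (142202342-142205290), and the brighter of its 2 probes showed 3 levels rather than 2. The brighter probe read 7.45 and 7.61 in resistant siERRα cells and 7.67 and 7.75 in resistant siC cells, against 5.11 and 5.37 in parental siERRα cells and 5.25 and 4.83 in parental siC cells. No parental array detected it and every resistant array did. The difference was 2.67 ± 0.44 under siC and 2.30 ± 0.44 under siERRα on the log2 scale. Because the parental level was not detected, the fold change has only a bound, taken against the higher of the probe's own value and the lowest detected signal on each array: at least 4.06-fold under siC and at least 3.99-fold under siERRα.

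By the brighter probe, the starved, EGF and HRG cells held MAGEC2 at a level between these 2. The brighter probe read 8.16 and 6.60 in EGF siERRα cells and 6.86 and 6.71 in EGF siC cells, 6.70 and 6.36 in HRG siERRα cells and 6.64 and 6.58 in HRG siC cells, and 6.67 and 6.40 in starved siERRα cells and 6.93 and 5.61 in starved siC cells. The value of 8.16, above every resistant array, came from the array that stood apart, and the 5.61 was not detected. Parental cells were lower than starved cells by at least 1.49-fold under siC, where 1 of the 2 starved arrays detected the probe, and at least 2.00-fold under siERRα. The siC difference of -1.23 was -1.89 without the second starved siC array and -0.57 without the first, and in the second of these cases neither group detected the probe, so that no fold is left. Neither growth factor was set clearly apart from the starved cells: EGF over starved was 0.52 ± 0.44 under siC and 0.85 ± 0.44 under siERRα, and the second value was 0.07 without the array that stood apart.

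The dimmer MAGEC2 probe was detected on the 4 resistant arrays alone, at 5.85 and 5.73 under siERRα and 6.47 and 5.84 under siC. In parental cells it read 4.64 and 4.51 under siERRα and 4.66 and 4.99 under siC, none detected. No starved, EGF or HRG array detected it either, so the middle level rests on the brighter probe. Parental over starved for the dimmer probe was -0.20 under siC, where the arrays overlapped, and -0.55 under siERRα, where they did not. Its difference between resistant and parental cells was 1.33 under siC (at least 1.38-fold) and 1.21 under siERRα (at least 1.19-fold), in the direction of the brighter probe and smaller. The other MAGEC genes of the array, MAGEC1 and MAGEC3, were not detected on any of the 20 arrays by any of their probes.

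TUBA3E, on chromosome 2 (130191745-130198439), had an on-or-off pattern. It read 7.34 and 6.83 in resistant siERRα cells and 7.13 and 7.37 in resistant siC cells, against 4.55 and 4.55 in parental siERRα cells and 4.51 and 4.5 in parental siC cells. It was detected on the 4 resistant arrays and on none of the other 16, where it stayed between 4.44 and 4.96. The difference from parental cells was 2.74 ± 0.19 on the log2 scale under siC and 2.54 ± 0.19 under siERRα, or at least 2.95-fold and at least 2.93-fold.

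TUBA3C and TUBA3D, the closest relatives of TUBA3E, went the same way. TUBA3C was detected on the 4 resistant arrays alone, at 6.04 and 5.79 under siERRα and 5.82 and 6.36 under siC, against 4.60 and 4.76 in parental siERRα cells and 4.71 and 4.60 in parental siC cells. The brighter TUBA3D probe was detected on all arrays, at 8.63 and 9.02 in resistant siERRα cells and 8.64 and 8.92 in resistant siC cells, against 7.46 and 7.26 in parental siERRα cells and 7.39 and 7.04 in parental siC cells. The other TUBA3D probe was detected on 1 of 20 arrays, a resistant one. TUBA3C rose by 1.44 ± 0.25 under siC (at least 1.32-fold, adjusted p = 0.0044) and TUBA3D by 1.56 ± 0.38 (adjusted p = 0.033, limma over 9592 genes). TUBA3C passed detection only through the resistant groups, so its test was not independent of its being high there. The call was lost under 4 of 13 alternatives for TUBA3C (adjusted p up to 0.086) and 5 of 14 for TUBA3D (up to 0.23). These 3 genes are near-identical copies, the sequences of their probes were not used here, and which copy each probe reads was not tested. The array that stood apart read 8.55 for TUBA3D, just under the lowest resistant array, and did not detect TUBA3C or TUBA3E.

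**Figure D2:**
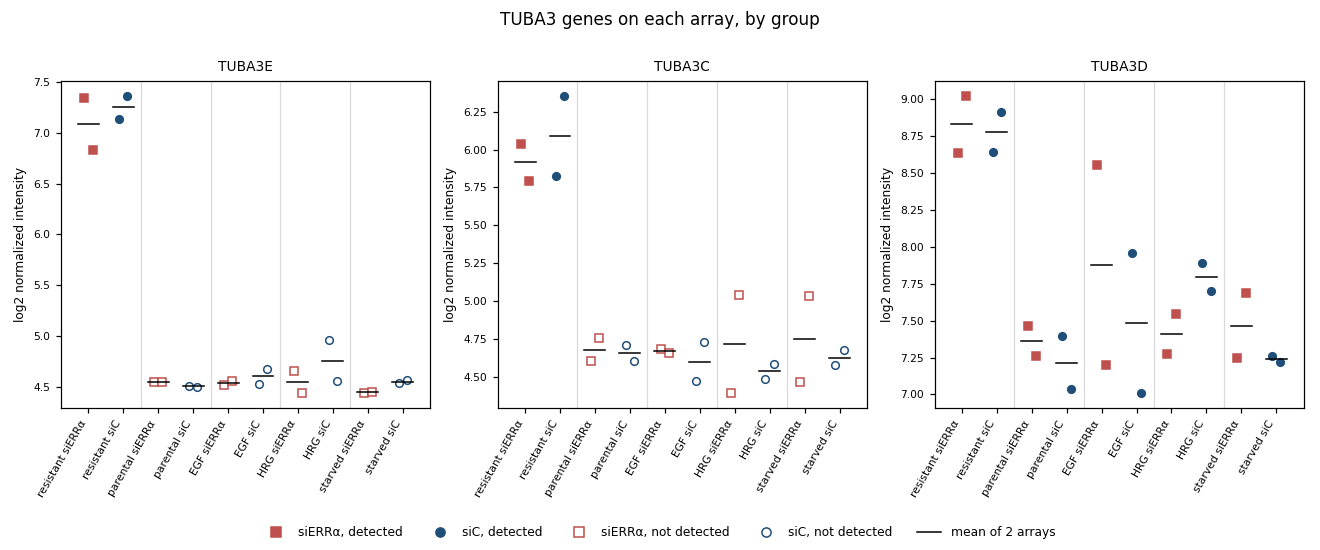
Log2 normalized intensity of TUBA3E, TUBA3C and the brighter TUBA3D probe (vertical axes, each panel with its own range) on the 20 arrays by group (horizontal axis), with squares for siERRα, circles for siC, open symbols for not detected and lines for the mean of 2 arrays. TUBA3E and TUBA3C are detected in resistant cells alone (TUBA3E at 6.83 to 7.37), and TUBA3D is detected everywhere and highest in resistant cells (8.63 to 9.02).

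TBATA, on chromosome 10 (70771238-70785377), ran opposite to the brighter MAGEC2 probe over the 3 kinds of cell. It read 6.02 and 5.89 in resistant siERRα cells and 5.57 and 5.80 in resistant siC cells, against 8.14 and 8.34 in parental siERRα cells and 8.34 and 8.33 in parental siC cells. All 4 resistant arrays were below all other arrays, and still detected the probe. The difference between resistant and parental cells was -2.65 ± 0.24 on the log2 scale under siC and -2.28 ± 0.24 under siERRα, and parental cells were higher 6.27-fold and 4.87-fold.

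The growth factor experiment again held the middle level of TBATA. It read 7.52 and 7.10 in EGF siERRα cells and 6.77 and 7.54 in EGF siC cells, 7.10 and 6.92 in HRG siERRα cells and 7.16 and 7.34 in HRG siC cells, and 6.93 and 7.36 in starved siERRα cells and 7.20 and 7.22 in starved siC cells. All these arrays were below the 4 parental and above the 4 resistant arrays. Parental over starved was 1.13 ± 0.24 under siC and 1.10 ± 0.24 under siERRα, about 2.18-fold and 2.14-fold, while EGF over starved under siC was -0.05 ± 0.24 and HRG over starved 0.04 ± 0.24. The 6 growth factor groups did not differ from their neighbours in the order beyond their spread.

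CRISP2, on chromosome 6 (49676652-49714220), was detected with a growth factor alone. It read 6.44 and 6.38 in EGF siC cells, against 5.28 and 4.62 in starved siC cells, and no array outside the EGF siC group detected it. In EGF siERRα cells it read 4.77 and 5.50, and in starved siERRα cells 4.81 and 5.30. HRG gave 4.92 and 4.57 under siERRα and 4.67 and 4.82 under siC. Resistant cells read 5.19 and 4.60 under siERRα and 4.84 and 4.42 under siC, and parental cells 4.61 and 4.72 under siERRα and 4.78 and 4.59 under siC.

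EGF over starved for CRISP2 was 1.46 ± 0.29 on the log2 scale under siC, at least 1.45-fold. Under siERRα it was 0.08 ± 0.29 with both groups undetected, and 0.45 without the array that stood apart. HRG over EGF under siC was -1.66 ± 0.29, with EGF at least 1.48-fold higher, and siERRα over siC with EGF was -1.27 ± 0.29, or -0.91 without that array. The level with EGF was close to the lowest detected signals, which were 5.50 to 6.16 over the 20 arrays, so these folds are lower bounds near 1. The relatives CRISP1 and CRISP3 were not detected on any array.

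The sizes of the members' differences depend on how background is treated, more than their directions do. In the table normalized by the authors, with its transform not stated, resistant over parental under siC was 2.37 for GTSF1, 0.75 for MAGEC2, 0.59 for TUBA3E and -1.0 for TBATA, and EGF over starved under siC was 0.28 for CRISP2. Without background correction the same values were 2.84, 1.22, 1.19, -1.45 and 0.54.

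The promoters of the 4 members that differed between resistant and parental cells are shown to set the higher and the lower members side by side. The sequences are the 250 bases before the start of each gene in RefSeq (GRCh38.p14), all on the minus strand, at chr12:54473603-54473852 for GTSF1, chrX:142205291-142205540 for MAGEC2, chr2:130198440-130198689 for TUBA3E and chr10:70785378-70785627 for TBATA. Capitals mark CG pairs, the letters at which promoter methylation takes place.
GTSF1: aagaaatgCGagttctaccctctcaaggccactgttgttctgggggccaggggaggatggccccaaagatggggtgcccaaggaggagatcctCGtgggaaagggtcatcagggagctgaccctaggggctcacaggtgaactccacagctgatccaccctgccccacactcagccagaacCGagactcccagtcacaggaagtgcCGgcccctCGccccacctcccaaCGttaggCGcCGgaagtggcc
MAGEC2: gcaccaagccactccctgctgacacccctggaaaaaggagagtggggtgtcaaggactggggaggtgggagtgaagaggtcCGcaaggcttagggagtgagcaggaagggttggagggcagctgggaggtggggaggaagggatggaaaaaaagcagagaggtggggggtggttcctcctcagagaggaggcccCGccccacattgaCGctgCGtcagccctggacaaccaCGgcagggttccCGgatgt
TUBA3E: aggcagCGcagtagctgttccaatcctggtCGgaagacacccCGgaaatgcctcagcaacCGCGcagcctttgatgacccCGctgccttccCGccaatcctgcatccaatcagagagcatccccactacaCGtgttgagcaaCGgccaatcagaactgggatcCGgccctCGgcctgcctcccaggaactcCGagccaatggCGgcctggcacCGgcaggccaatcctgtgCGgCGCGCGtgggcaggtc
TBATA: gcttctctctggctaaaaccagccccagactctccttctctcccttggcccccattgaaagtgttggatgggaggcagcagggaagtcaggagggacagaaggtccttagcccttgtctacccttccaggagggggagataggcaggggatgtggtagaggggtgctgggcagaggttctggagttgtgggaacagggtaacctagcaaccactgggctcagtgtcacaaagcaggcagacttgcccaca

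CG pairs numbered 8 in GTSF1, 6 in MAGEC2, 18 in TUBA3E and 0 in TBATA, where a second TBATA start had 2 and the CRISP2 start 18. The median over 35116 RefSeq promoters of this length was 11, and 56.3% of them held at least as many as GTSF1, 61.9% as MAGEC2, 36.8% as TUBA3E and as CRISP2. By this count the 3 members that were higher in resistant cells were spread around the median. Of 6 motifs searched on both strands, the cyclic AMP response element TGACGTCA (1.65% of promoters), the AP-1 site TGANTCA (6.57%) and the ERR site TCAAGGTCA (0.319%) had no match in any of the 5 genes. The ETS site CCGGAAGT (3.42% of promoters) matched once in GTSF1, 12 bases before the start. The E-box CACGTG (6.34%) matched once in TUBA3E and once in CRISP2, and the CCAAT box CCAAT (32% of promoters) matched 6 times in TUBA3E and in no other member. A match is a match of letters and says nothing of binding.

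Genes beside the members showed smaller differences. The members had been selected on their large differences, so this was likely in advance and does not show that the changes are confined to them. The 5 measured genes on each side of GTSF1, MAGEC2, TUBA3E and TBATA gave resistant over parental values, under siC, of -0.59 to 1.12, -0.67 to 0.26, -0.21 to 0.86 and -0.83 to 0.23. Of each 10, the number called (limma adjusted p under 0.05) was 1 for GTSF1, 0 for MAGEC2, 0 for TUBA3E and 1 for TBATA, where 432 of 9592 genes, 4.5%, were called overall. The called neighbours, named because their values had been seen, were GDF11 beside GTSF1 (1.12, adjusted p = 0.038) and SGPL1 beside TBATA (-0.70, adjusted p = 0.031). GDF11 lost its call under 7 of 14 alternatives (adjusted p up to 0.35) and SGPL1 under 5 of 14 (up to 0.24). The neighbours spanned 1587 kb around GTSF1 and 13969 kb around MAGEC2, a stretch with few measured genes.

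**Figure D3:**
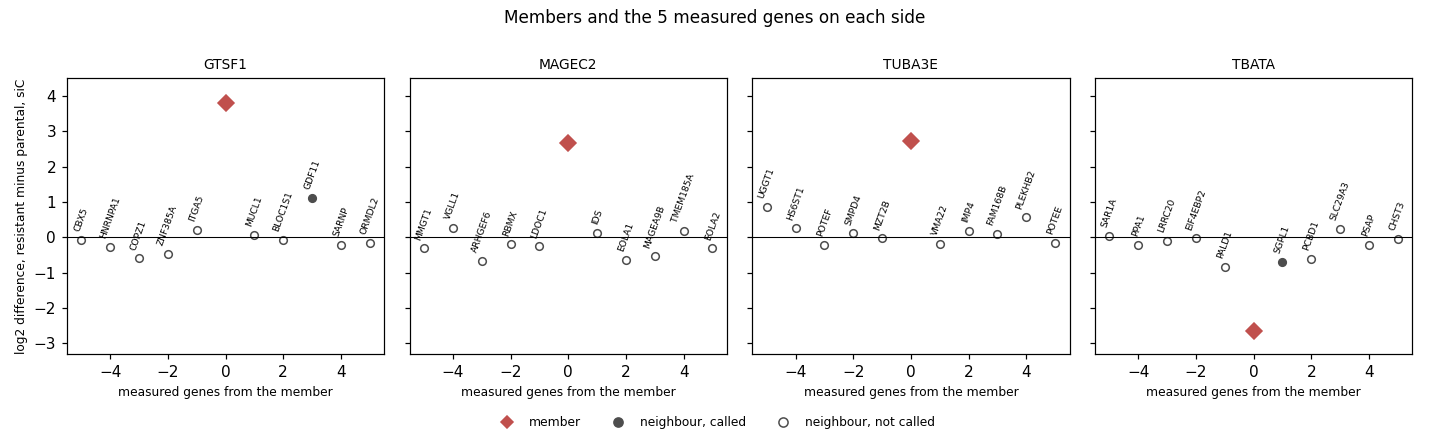
Log2 difference between resistant and parental cells under siC (vertical axis) for 4 members (diamonds) and the 5 measured genes on each side in chromosome order (circles, filled where called), by the number of measured genes from the member (horizontal axis). The members, selected on their differences, lie at 3.81, 2.67, 2.74 and -2.65, and their neighbours between -0.83 and 1.12.

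The genes whose levels followed the members most closely over the 19 arrays other than the one that stood apart are named as a description of likeness, and these arrays share groups, so that a gap between resistant and other cells alone gives a high correlation. For GTSF1 they were PTPRM (Pearson r = 0.972), a receptor tyrosine phosphatase, the member TUBA3E (0.971) and AFF3 (0.969), a nuclear transcription elongation factor. For TUBA3E they were PTPRM (0.983), AFF3 (0.982) and PPARG (0.976), the nuclear receptor of fat cells. For MAGEC2 they were PSMB8 (0.940), an immunoproteasome subunit, CST6 (0.931), a cysteine protease inhibitor, and FBLN1 (0.931), a matrix protein. For TBATA they were WASF3 (0.945), an actin regulator, PCDHB2 (0.935), a protocadherin, and SNHG6 (0.934), a small nucleolar RNA host gene. For CRISP2 they were lower, with IL24 (0.816), a cytokine, RGS2 (0.810), a regulator of G protein signalling, and a probe annotated to MIR1229 (0.801).

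Other germline genes were mostly not detected in these cells. Of 250 genes listed without the members, as piRNA factors, MAGE genes, other cancer-testis antigens, meiosis genes, sperm genes and CAP superfamily genes, 220 were on the platform and 43 (19.5%) passed detection. In resistant over parental cells under siC, 9 of these 43 (20.9%) passed the test, 4 higher and 5 lower, beside 4.5% of all 9592 genes (2.14% higher and 2.37% lower). Without the array that stood apart the counts were 11 of 43 and 976 of 9592 (10.2%). The median log2 difference of the 43 was 0.08 and the median size 0.43, beside 0.02 and 0.25 for all genes. Of the 20 germline genes detected in every group, which could not have passed through 1 high group, 4 were called, where 4.23% of the 6615 genes detected in every group were.

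The called genes all came from the lists of MAGE family genes and of other cancer-testis antigens. Of 14 MAGE genes 2 rose and 2 fell. MAGEA12 read 7.92 and 8.37 in resistant siERRα cells and 8.29 and 8.45 in resistant siC cells, against 6.17 and 5.34 in parental siERRα cells and 6.03 and 5.50 in parental siC cells, and rose by 2.60 ± 0.30 under siC (adjusted p = 2.2e-04). Neither parental group detected MAGEA12 on both arrays, so the size of this rise rests in part on undetected signal. MAGEA1 read 6.81 and 7.14 under siERRα and 7.18 and 7.36 under siC in resistant cells, against 4.93 and 4.66 under siERRα and 4.96 and 4.57 under siC in parental cells, where it was not detected, and rose at least 2.99-fold (adjusted p = 5.6e-06). Both are X-linked tumour antigens of the same family as MAGEC2, and probes of MAGEA genes may read related copies. MAGEA1 passed detection only through the resistant groups, so its test was not independent of its being high there. The MAGE genes that fell, named after their values were seen, were MAGED1 (-0.63 ± 0.14) and NDN, which was not detected in resistant siC cells and was at least 1.40-fold higher in parental siC cells. NDN passed detection only through the parental groups. The calls were lost under 6 of 14 alternatives for MAGED1 and 6 of 13 for NDN. Both, unlike MAGEA genes, are active in many tissues, and were counted among the germline genes by their family alone.

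Of 12 other cancer-testis antigens 2 rose and 3 fell. PAGE5 read 8.66 and 8.51 in resistant siC cells, against 6.78 and 6.66 in parental siC cells, and rose by 1.86 ± 0.29 (adjusted p = 0.0023). GAGE2A read 5.59 and 5.07 in resistant siC cells, against 7.11 and 6.88 in parental siC cells, and fell by 1.67 ± 0.43 on the log2 scale (-1.67, adjusted p = 0.041). Neither resistant group detected GAGE2A on both arrays, so the size of this fall rests in part on undetected signal. The others, named after their values were seen, were CSAG1, which was not detected in parental siC cells and rose at least 1.62-fold (adjusted p = 0.028), GAGE4, which fell by 1.45 ± 0.33 (adjusted p = 0.025), and GAGE12G, which fell by 1.66 ± 0.31 (adjusted p = 0.0077). CSAG1 passed detection only through the resistant groups. Calls were lost under 6 of 13 alternatives for CSAG1, 5 of 14 for GAGE2A, 4 of 14 for GAGE4 and 3 of 14 for GAGE12G. GAGE genes are near-identical copies on the X chromosome, so the 3 GAGE probes may read the same transcripts. None of 3 piRNA factors, 6 meiosis genes, 7 sperm genes and 1 CAP gene was called by limma, where 4.5% of all genes were. In lists this short, none called lies near that share, so the counts show no contrast with the other lists. At an unadjusted p under 0.05 there were 1, 0, 0 and 0 of them, and 1562 of 9592 genes. The methods' t-test called no germline gene after adjustment, and only 3 of all 9592 genes.

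Under siERRα, resistant over parental cells gave 8 called germline genes of 43, where 5.03% of all genes were called, and 7 of them were among the 9 called under siC. All 9 kept their sign. The difference between the siRNAs in the response to resistance was tested by interaction for every gene: none of 9592 passed in limma, with 147 at an unadjusted p under 0.05. ESRRA, the target of the siRNA, did not pass either, though its resistant over parental values were -1.41 under siERRα and -0.13 under siC. The test missed that difference, so its zero does not show that the responses were equal. GAGE4 has no chromosome in the annotation used. Of the other 8 called genes 7 map to the X chromosome, as do 20 of the 42 measured germline genes with a chromosome and 323 of all measured genes, and 25 of those 323 (7.74%) were called. Leaving out any one of the 4 resistant or parental siC arrays left 3 or 4 calls of 43, where 1.23% to 1.55% of all genes were called. MAGEA12, MAGEA1 and PAGE5 passed under every limma alternative in which they were measured. The methods' t-test called none of the 43 after adjustment, where it called 3 of all 9592 genes.

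**Figure D4:**
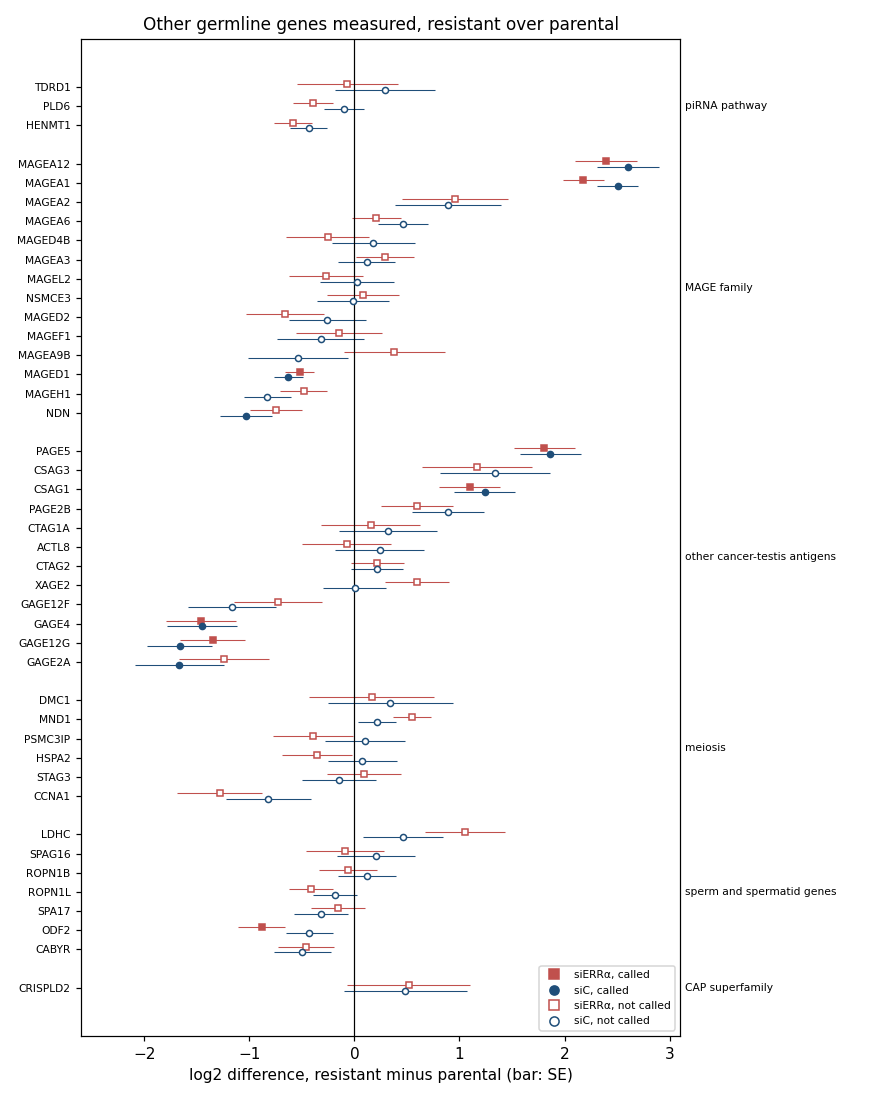
Log2 difference between resistant and parental cells (horizontal axis, bars are SE of the limma fit) for the 43 germline genes that passed detection, members left out, grouped by list, with squares for siERRα, circles for siC and filled symbols where the adjusted p was under 0.05. Of the siC values, 4 called genes lie to the right (MAGEA12, MAGEA1, PAGE5 and CSAG1) and 5 to the left (MAGED1, NDN, GAGE2A, GAGE4 and GAGE12G). MAGED1 and NDN belong to the MAGE family but are active in many tissues.

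The other comparisons called few of the 43 germline genes. EGF over starved cells under siC called 0 of 43, where 5.25% of all genes were called. At an unadjusted p under 0.05 there were 5 of 43 and 1680 of 9592. HRG over starved cells under siC called 0 of 43, where 2.91% were called, with 2 of 43 and 1399 of 9592 unadjusted. The siERRα over siC difference, as the mean of the 5 settings, called 0 of 43, with 1 of 43 and 828 of 9592 unadjusted. Over all 9592 genes it called 1 (0.0104%), ESRRA itself. These 3 zero counts are limma's and, in a list of 43, lie near the shares of all genes, so they say little of the germline genes. The methods' t-test with adjustment also gave 0, but over all 9592 genes it called 0 for EGF, 0 for HRG and 1 for siERRα. With so few calls its zeros say little of the germline genes. Without the array that stood apart EGF called 4 and HRG 1 of 43, where 11.7% and 7.64% of all genes were called. Without the other EGF siERRα array, which leaves that one alone in its group, siERRα over siC called 11 of 43, where 23.7% of all genes were called. Parental over starved cells under siC called 1 of 43, where 0.73% of all genes were called: XAGE2, an X-linked cancer-testis antigen, read 9.50 and 9.51 in parental siC cells, against 8.12 and 7.60 in starved siC cells, and rose by 1.64 ± 0.30 (adjusted p = 0.026). Leaving out any one of those 4 arrays ended that call, and without the array that stood apart 5 of 43 were called in this comparison, where 2.16% of all genes were.

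Relatives of the members in the cell were examined in 2 further lists. Of 12 alpha- and beta-tubulins measured, 5 were called in resistant over parental cells under siC, beside 4.5% of all genes. Among these 5, TUBA3C passed detection through the resistant groups alone. TUBA3C and TUBA3D rose, as given above, while TUBB3 fell by 1.83 ± 0.27 on the log2 scale (-1.83, adjusted p = 0.0016) and TUBB6 fell by 1.78 ± 0.32 on the log2 scale (-1.78, adjusted p = 0.0064), the TUBB3 level being 6.0 and 5.93 in resistant siC cells, against 7.95 and 7.65 in parental siC cells. TUBA4A, named after its value was seen, also fell, by 0.86 ± 0.19. The TUBB6 call was lost under 2 of 14 alternatives (adjusted p up to 0.085) and the TUBA4A call under 5 of 14 (up to 0.18). TUBB3 is the beta-tubulin best known from neurons. Of 21 measured genes that silence germline genes, such as DNA methyltransferases and the E2F6 and TRIM28 complexes, limma called 0, beside 4.5% of all genes. In a list of 21, a count of 0 lies near that share and does not show that these genes were unchanged. At an unadjusted p under 0.05 there were 0 of 21 and 1562 of 9592. DNMT1 and TRIM28 are named from this list after their values were seen. DNMT1, the maintenance methyltransferase, gave 0.33 ± 0.16 (adjusted p = 0.36 by limma). TRIM28, the partner of MAGEC2, gave 0.04 ± 0.20 (adjusted p = 0.96 by limma). PIWI genes, the partners of GTSF1, were represented by PIWIL1, PIWIL2, PIWIL3 and PIWIL4, and no group detected any of them on both arrays, with 1 detection of PIWIL1 on 1 array.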

How the data were processed

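The authors hybridized labelled cRNA to Illumina HumanHT-12 v4 arrays and deposited intensities with a detection p-value per probe; a second deposited table holds log2 values normalized by the authors with lumi in FlexArray, version not given in the sources used here. Starting from the intensities, background was corrected by normexp on the detection p-values (offset 16), then quantile normalized and log2 transformed in limma 3.58.1 (R 4.3.3). Of 47323 probes, 30113 had 1 gene symbol, 8 several and 17202 none in the platform annotation; those detected (p under 0.01) on both arrays of at least 1 group were kept, 1 per gene by highest mean, leaving 9592 genes. All 20 arrays entered 1 limma fit with 10 group means, with Benjamini-Hochberg adjustment over all genes and a call at 0.05. The number of arrays limits the precision.

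The members and lists were chosen with earlier results of these data known. The text names the members, at most 4 called list genes per comparison by size, the 3 genes most like each member and ESRRA; others are said to be named after their values were seen. Neighbouring genes and promoters were added after the values had been seen. Replicate numbers were not taken to pair the arrays: the labels name no shared batch or day, and deviations of same-numbered arrays correlated at -0.08 to 0.31 over 45 pairs of groups, with 21 over 0.1. No column was left without a sample. Alternatives were no background correction, an offset of 50, median scaling, the authors' table, other filters, the mean of probes, a replicate block, array weights, fewer arrays and the t-test named in the methods.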

Additional observations from a re-analysis of the deposited data

Results flagged for a closer look

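GTSF1 moved in opposite directions with HRG under the 2 siRNAs: HRG over starved was -0.48 on the log2 scale under siERRα, with both HRG arrays below both starved arrays, and 0.32 under siC, with both above. TBATA moved in opposite directions with siERRα in 2 settings: siERRα over siC was 0.27 in resistant cells, with both siERRα arrays above both siC arrays, and -0.24 in HRG cells, with both below. Neither difference was tested, and each rests on 2 arrays a group.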

How the results depend on the processing

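Of 216 values of the members' differences under alternatives, 166 stayed within the spread between replicates and 50 moved beyond it. The 166 do not measure stability. The replicate block, array weights, other filters and leaving out an array of another group left the differences as they were. Leaving out 1 of 2 replicates cannot move a difference beyond that spread. All 50 came from the background, offset, scaling and authors' table settings or, for MAGEC2, the mean of probes. The sign changed in 2 values, both of CRISP2 in EGF over starved siERRα cells, where no array detected it (0.08, and -0.16 and -0.28 when 1 array was left out). The smallest values came from the table normalized by the authors. For the 43 germline genes, the number called in resistant over parental cells was 9, against 16 with array weights (15.6% of all genes were then called, against 4.5%), 0 by the methods' t-test with adjustment, and 3 to 11 when 1 array was left out. In EGF over starved cells it was 0, against 4 with array weights (11.4% of all genes), 1 with only the arrays compared, and 0 to 4 when 1 array was left out. In HRG over starved cells it was 0, against 1 with array weights (6.98%). With no filter, where 220 germline genes were measured, 1 of these was called with HRG (1.21% of all genes). In siERRα over siC it was 0, and 0 to 11 when 1 array was left out. In parental over starved cells it was 1, against 7 with array weights (3.59%), 0 with only the arrays compared, 0 by the t-test, and 0 to 5 when 1 array was left out. By the adjusted t-test 3 of 9592 genes were called in resistant over parental cells and 0 in parental over starved cells. The share of all genes called also moved when 1 array was left out. The cause of these moves was not tested. The sample codes are numbers for every first replicate and letters for every second, and what these 2 sets are is not given. With the replicate block the counts were 10 for resistant cells, 0 for EGF, 0 for HRG, 0 for siERRα and 1 for parental over starved cells. The shares of all genes called were then 5.62%, 6.16%, 3.73%, 0.0104% and 0.876%, in that order. No gene named as called in these comparisons lost its call with the block. GDF11, SGPL1 and ESRRA were added to the alternatives after the data had been seen. Median scaling moved the median of all genes in parental over starved cells by 0.285 on the log2 scale. Probes near background, such as CRISP2, have only bounds where they were not detected.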
